A study of Mus musculus with 2 samples.

Results

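The V-ATPase subunits, the ATG proteins of autophagy and the LAMP glycoproteins of the lysosome were taken as 1 group of genes. They were chosen by symbol alone, as protein-coding genes whose names begin with Atp6v0 or Atp6v1, with Atg and a digit, or with Lamp and a digit. This gave 46 genes of the 21853 protein-coding genes in the annotation. Open chromatin had been measured by ATAC-seq, in which the Tn5 transposase inserts adapters into accessible DNA, in monocytes taken from the blood of adult C57BL/6J mice aged 5 to 6 weeks. The series held 1 group of 2 biological replicates of 50000 cells each, with no treated or control group. The labels give both replicates the same donor identifier, and their spread may be technical. The data were lists of peaks, each peak with a fold enrichment, a linear ratio over background that is the authors' own value for that peak. Because the lists hold no read counts, the sequencing depth is unknown.

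The V-ATPase is a rotary proton pump that acidifies lysosomes, endosomes and phagosomes. Its cytosolic V1 sector hydrolyses ATP, and its V0 sector, in the membrane, carries the protons. In autophagy, an initiation machinery with lipid-transfer and membrane proteins builds a double membrane around cargo, and a conjugation machinery attaches LC3 and GABARAP proteins to it before it fuses with the lysosome. Monocytes are phagocytes and depend on acid lysosomes to digest what they take up. Many genes of the lysosome and of autophagy are known targets of TFEB and related factors, which bind a CLEAR element built around an E-box.

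A promoter was called open where a region of the authors' conservative set, made from both replicates with overlapping peaks merged, came within 1 kb of any annotated transcription start site (TSS) of that gene. Of the 46 genes, 34 (73.9%) had an open promoter, against 46.6% of all protein-coding genes. A gene with no such region is called closed here, which means that no region was listed and not that the DNA was shown to be inaccessible. In a bulk sample, fewer cells with an open site and less opening in each cell cannot be told apart. All 11 conjugation genes were open, as were 6 of the 7 initiation genes. The V0 sector had 6 open of 9, the V1 sector 9 of 14, counting Atp6v1fnb, and the LAMP family 2 of 4. Atg4a-ps, which the rule caught by its symbol and which is named as a pseudogene of Atg4a, was closed.

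Of the 12 closed genes, 10 were isoforms known mainly from particular tissues, as listed from general knowledge of these genes. The other members, apart from those that belong by name only, were taken as broadly expressed, and expression was not measured. Because this listing was made with earlier results of these data known, the split is a description and not a test. Of the 33 genes taken as broadly expressed, 33 were open. Of the 11 tissue isoforms, 1 was open (9.09%), and neither of the 2 genes that belong by name only, Atg4a-ps and Atp6v1fnb, was. Each of the 13 subunits of the pump, 5 in V0 and 8 in V1, had at least 1 open isoform. Of the 7 subunits encoded by more than 1 gene, 5 had exactly 1 open. These pairs were Atp6v0d1 open and Atp6v0d2 closed, Atp6v0e and Atp6v0e2, Atp6v1b2 and Atp6v1b1, Atp6v1c1 and Atp6v1c2, and Atp6v1e1 and Atp6v1e2, each with the open gene first. The a subunit of V0, which helps form the path of the protons, had Atp6v0a1 and Atp6v0a2 open and Atp6v0a4 closed. The G subunit of V1, part of the stalk that holds the motor in place, had Atp6v1g1 and Atp6v1g2 open and Atp6v1g3 closed.

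**Figure D1:**
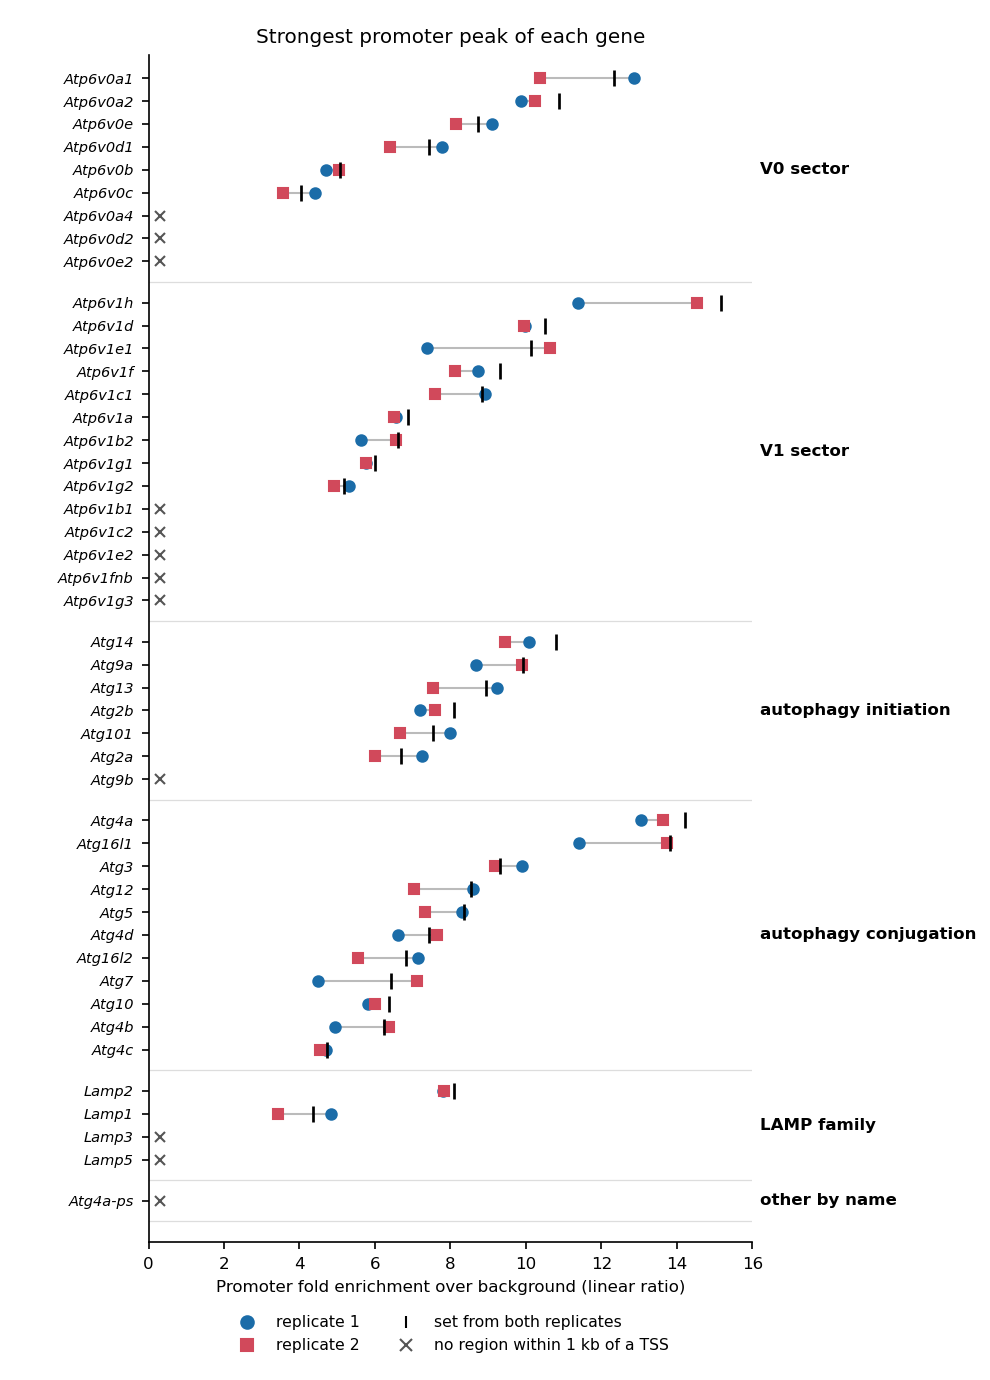
Fold enrichment (horizontal axis, linear ratio over background) of the strongest promoter peak of each of the 46 genes, grouped by role, in replicate 1 (circles), replicate 2 (squares) and the set made from both (vertical ticks). The 12 genes marked with a cross had no region within 1 kb of a TSS, and the open promoters of the set from both replicates ran from 4.05 for Atp6v0c to 15.2 for Atp6v1h.

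Promoter sequence was read next, because the CLEAR element gives these genes a known motif. RefSeq promoter windows, from 250 bp before a TSS to 50 bp after it on build GRCm38.p6, were matched by symbol for 37 of the 46 genes, which had 43 windows. The genes without a match were Atg12, Atg16l1, Atg4a-ps, Atp6v0a2, Atp6v0d2, Atp6v1b2, Atp6v1c1, Atp6v1g1 and Atp6v1h. The CLEAR-type string GTCACGTG, searched on both strands, was in 6 of these 43 windows (14.0%), against 2.92% of all 20143 windows. Among windows of genes with an open promoter it was in 6 of 32 (18.8%), against 4.42% of 10249. The shorter E-box CACGTG, which every CLEAR-type match contains, was in 9 of 43 windows (20.9%), against 8.03%. The palindrome TCACGTGA, which also contains the E-box and overlaps a CLEAR-type match where a G precedes it or a C follows it, was in 4 windows (9.30%), against 1.26%. The shares count windows, and a match describes the letters only. The CLEAR-type string was searched because it is known from such genes, so its higher share is a description and not a test.

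The 6 windows with a CLEAR-type string belonged to Atg14, Atg3, Atg7, Atp6v0b, Atp6v0d1 and Lamp1. None was of the V1 sector, but 4 of its 9 open genes had no window to search. They are printed 5′ to 3′ on the strand of the gene, with each E-box in capitals, to show where the strings lie and how many there are. Of these 6 windows, 5 overlapped an open region and that of Atg7, which belongs to a TSS inside the gene, did not. The windows were chr14:47568385-47568684 on the minus strand for Atg14, chr16:45158579-45158878 on the plus strand for Atg3 and chr6:114670846-114671145 on the plus strand for Atg7. Those of the pump and of Lamp1 were chr4:117887280-117887579 on the minus strand for Atp6v0b, chr8:105566015-105566314 on the minus strand for Atp6v0d1 and chr8:13158911-13159210 on the plus strand for Lamp1. Lamp1 had 4 E-boxes in its window, of which 1 was part of a CLEAR-type string, Atg3 had 2 and both were, and Atp6v0b had 2, of which 1 was. The other windows had 1 each.
Atg14: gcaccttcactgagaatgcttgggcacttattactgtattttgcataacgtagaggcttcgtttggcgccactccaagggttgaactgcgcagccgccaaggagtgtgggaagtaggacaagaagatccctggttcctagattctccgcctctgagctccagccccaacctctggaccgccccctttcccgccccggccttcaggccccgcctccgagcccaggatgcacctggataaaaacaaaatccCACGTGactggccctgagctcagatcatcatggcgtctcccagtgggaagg
Atg3: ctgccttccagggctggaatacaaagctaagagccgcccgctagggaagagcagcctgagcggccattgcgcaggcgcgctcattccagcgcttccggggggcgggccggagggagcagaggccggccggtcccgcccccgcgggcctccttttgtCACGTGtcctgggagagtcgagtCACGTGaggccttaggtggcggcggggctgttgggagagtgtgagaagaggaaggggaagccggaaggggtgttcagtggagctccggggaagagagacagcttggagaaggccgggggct
Atg7: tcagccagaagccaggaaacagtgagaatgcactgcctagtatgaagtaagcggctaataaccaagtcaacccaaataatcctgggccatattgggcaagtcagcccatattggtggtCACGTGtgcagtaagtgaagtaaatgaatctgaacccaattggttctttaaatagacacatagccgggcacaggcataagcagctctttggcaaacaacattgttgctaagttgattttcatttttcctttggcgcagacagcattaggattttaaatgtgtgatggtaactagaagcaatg
Atp6v0b: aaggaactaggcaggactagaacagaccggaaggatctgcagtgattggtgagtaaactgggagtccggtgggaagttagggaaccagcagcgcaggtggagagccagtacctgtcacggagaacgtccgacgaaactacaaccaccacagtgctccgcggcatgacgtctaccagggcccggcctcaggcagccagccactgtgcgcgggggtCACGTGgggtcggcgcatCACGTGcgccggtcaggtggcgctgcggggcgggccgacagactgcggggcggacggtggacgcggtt
Atp6v0d1: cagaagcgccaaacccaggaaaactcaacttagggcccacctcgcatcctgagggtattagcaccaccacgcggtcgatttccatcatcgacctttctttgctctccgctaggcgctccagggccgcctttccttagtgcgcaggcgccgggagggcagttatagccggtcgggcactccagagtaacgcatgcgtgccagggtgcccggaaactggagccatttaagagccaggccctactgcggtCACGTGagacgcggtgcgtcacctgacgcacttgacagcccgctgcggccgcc
Lamp1: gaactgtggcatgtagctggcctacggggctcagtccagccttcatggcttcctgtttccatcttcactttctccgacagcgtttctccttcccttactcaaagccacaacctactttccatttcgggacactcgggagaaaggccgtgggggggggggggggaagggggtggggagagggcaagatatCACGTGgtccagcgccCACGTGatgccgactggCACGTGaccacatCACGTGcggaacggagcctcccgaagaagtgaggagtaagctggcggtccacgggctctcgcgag

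Most of the other strings searched were about as common in these windows as elsewhere, or rarer. The GC box GGGCGG was in 22 of 43 windows (51.2%), against 47.7% of all windows. The ETS string CCGGAAG was in 6 (14.0%), against 11.9%, and the CCAAT box CCAAT in 12 (27.9%), against 37.8%. The PU.1-type string GAGGAAGT was in 0 of 43, against 3.11%, and the AP-1 string TGANTCA in 1, that of Atp6v0a1, against 7.0%. The CEBP string TTGCNNAA was in 3 (6.98%), against 10% of all windows, and the NRF1-type string CGCATGCG in 2 (4.65%), against 2.61%. The YY1-type string AAGATGGC was in 4 windows (9.30%) of 3 genes, against 3.10%. All were searched on both strands, and the ETS and PU.1-type strings share the letters GGAAG.

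Among the V0 genes the strongest promoter was that of Atp6v0a1, an a subunit. Its peak had a fold enrichment of 12.9 in replicate 1 and 10.4 in replicate 2, and 12.3 in the set from both. It lay on chromosome 11 from 101009213 to 101009580 (mm10), with its summit 45 bp before the TSS. A further region, 1.16 kb before the first TSS, was weaker in each replicate, at 6.72 and 7.49. The weakest was Atp6v0c, which encodes the proteolipid of the rotating ring, with 4.41 and 3.56 in the replicates and 4.05 in the set from both. The ring protein encoded by Atp6v0b was nearly as weak, at 4.71 and 5.05. Both Atp6v0c values lay below both Atp6v0b values, and all 4 lay below those of the other open V0 promoters. Atp6v0d1, which couples the ring to the stalk, had 7.77 and 6.40, and Atp6v0a2, the other open a subunit, had 9.86 and 10.2.

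Atp6v0e, a small membrane subunit, had promoter regions at separate starts 13.2 kb apart. At the first start the fold was 9.10 in replicate 1 and 7.44 in replicate 2. At the start within the gene it was 6.98 in replicate 1 and 8.16 in replicate 2. The order of these starts therefore differed between the replicates. In the set from both they had 8.74 and 8.46.

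In the V1 sector Atp6v1h, the H subunit that regulates the coupling of V1 to V0, stood highest. Its peak had 11.4 in replicate 1 and 14.5 in replicate 2, and its 15.2 in the set from both was the highest of the 34 and ranked 138 among the 10174 open promoters. This peak, on chromosome 1 from 5082809 to 5083662, lay at a TSS inside the gene, 13.1 kb after the first start. The weakest was Atp6v1g2, the single open tissue isoform, best known from neurons, at 5.32 and 4.91. Its region was shared with Nfkbil1, a neighbouring gene, whose start lay 88 bp from the summit, against 2 bp for the nearest start of Atp6v1g2. Both genes reach the same region, so the peak cannot be assigned to either alone.

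The subunits of the V1 motor and rotor lay between these. Atp6v1a, the catalytic A subunit, had 6.55 and 6.51, and Atp6v1b2, its partner B subunit, had 5.63 and 6.55. Atp6v1d and Atp6v1f, of the rotor, had 9.97 and 9.94, and 8.74 and 8.12. Of the stalk subunits, Atp6v1e1 had 7.37 in replicate 1 and 10.6 in replicate 2, a log2 difference of 0.53, while Atp6v1g1 had 5.76 and 5.75. Atp6v1c1, which joins the stalk to V0, had 8.92 and 7.58. Atp6v1a also had 3 promoter regions, of which the weakest, at 3.38 in the set from both, had no peak in either replicate's own pseudoreplicated set, the looser of the lists called from 1 replicate.

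Among the initiation genes Atg14, the subunit that directs the autophagy lipid kinase, had the highest mean, with 10.1 and 9.44. Atg2a, a lipid-transfer protein, had the lowest mean, with 7.26 and 6.00, though in replicate 1 its homologue Atg2b, with 7.19 and 7.58, was below it. Atg13 and Atg101, of the ULK kinase complex, had 9.24 and 7.54, and 8.0 and 6.67. Atg9a, the transmembrane protein of the seed vesicles, had 8.68 and 9.90, and so lay above Atg14 in replicate 2. Its summit lay 119 bp from its own start and 83 bp from that of Ankzf1, and the summit at Atg13 lay 305 bp from its own start and 28 bp from that of Harbi1. In these cases alone among the 34 the summit was nearer to the start of another gene than to one of their own. In the set from both replicates the 6 open initiation promoters ran from 6.70 to 10.8, a narrower range than that of the V0, V1 or conjugation genes.

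The conjugation genes covered almost the whole range. Atg4a, a protease that trims LC3 and GABARAP proteins, had 13.0 and 13.6, the highest mean of all 34 (13.3 ± 0.412, SD, n = 2), and 14.2 in the set from both, which ranked 286. Its paralogues were lower, with 4.94 and 6.38 for Atg4b, 6.62 and 7.65 for Atg4d and 4.70 and 4.56 for Atg4c, which had the lowest mean of the role, although Atg7 was below it in replicate 1. Atg4a was the only open gene outside the 3 CpG-richer classes described below. Its promoter region was shared with Psmd10, whose start lay 91 bp from the summit, against 88 bp for the Atg4a start. The RefSeq window, chrX:140956657-140956956 on the plus strand, is printed because this is the promoter with the highest mean. The capitals mark the 3 CCAAT boxes, of which 2 read CCAAT and 1 reads ATTGG, its reverse complement.
Atg4a: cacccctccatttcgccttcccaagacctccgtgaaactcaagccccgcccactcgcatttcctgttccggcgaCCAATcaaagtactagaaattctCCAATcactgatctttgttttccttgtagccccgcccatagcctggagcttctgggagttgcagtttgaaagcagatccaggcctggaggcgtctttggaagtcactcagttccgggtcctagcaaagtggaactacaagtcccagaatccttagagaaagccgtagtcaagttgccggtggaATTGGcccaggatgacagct

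Of the rest of the conjugation genes, Atg16l1, the scaffold that sets the site of lipidation, had the next highest mean, with 11.4 and 13.7, while its paralogue Atg16l2 had 7.15 and 5.55. Atg12 and Atg5, which are joined to each other, had 8.59 and 7.03, and 8.32 and 7.33. The E2-like enzymes Atg3 and Atg10 had 9.88 and 9.18, and 5.81 and 5.99. Atg7, the E1-like enzyme that serves both conjugation routes, had 4.50 in replicate 1 and 7.11 in replicate 2. This log2 difference of 0.66 was the largest of the 34. Its other promoter region, 5.71 kb after the first start, had 3.78 and 3.67.

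Of the LAMP genes, Lamp1 and Lamp2 encode the most abundant glycoproteins of the lysosomal membrane. Lamp2 had 7.80 and 7.83. Lamp1 had 4.84 and 3.43, a mean of 4.14 ± 0.998 (SD, n = 2), against 7.81 ± 0.0175 for Lamp2. The Lamp1 peak was in neither replicate's own thresholded set, the stricter of the lists called from 1 replicate. Lamp3, known from dendritic cells and lung, and Lamp5, known from neurons, were closed.

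The 12 closed genes had no promoter region in any of the 8 peak sets used. Over all protein-coding genes, 10174 had an open promoter in the conservative set and 11983 in the largest of these sets. The shares over all closed genes are not given here, so neither this count nor the next can be called particular to these genes. For 8 of the 12 closed genes the nearest open region of the conservative set lay over 10 kb from a TSS. These were Atp6v1g3 (11.8 kb), Atp6v0d2 (15.5 kb), Atp6v1c2 (18.8 kb), Lamp3 (26.6 kb), Atp6v1b1 (32.6 kb), Atp6v0a4 (43.0 kb), Lamp5 (63.4 kb) and Atg4a-ps (81.9 kb). Atp6v1g3, Atp6v0a4 and Atp6v1b1 are known from acid-secreting cells of the kidney and Atp6v0d2 from osteoclasts. Atp6v1c2 is known from kidney and lung. Closest were Atg9b, a paralogue of Atg9a, at 1.28 kb and Atp6v0e2, a brain isoform, at 1.51 kb, and a window of 2 kb counted both as open. The region 1.28 kb from Atg9b was not among those assigned to it, at 2.66 and 8.54 kb downstream. By the rule used here it was therefore counted at another gene, and whether it also serves Atg9b was not tested. Atp6v1fnb, a neighbour of Atp6v1f by name, lay 3.12 kb away, and Atp6v1e2, a testis isoform, 9.70 kb away. Over the peak sets and windows tried, the count of open genes ran from 30 to 36.

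CpG content moved with these calls. Protein-coding genes were ranked by the CpG observed over expected ratio within 500 bp of the TSS, the highest over a gene's starts, and split into 5 classes of equal size. The median ratio was 0.777 for the 33 genes taken as broadly expressed and 0.240 for the 11 tissue isoforms, against 0.614 for all genes. In the richest class 7 of 7 genes were open, against 77.9% of all genes, and in the next 18 of 18 were, against 73.6%. In the middle class 8 of 10 were open, against 58.0%. In the poorer classes 1 of 5 was open, against 17.9%, and 0 of 6, against 5.38%. Classes 2 and 3, counted from the poorest, held both kinds of the same listing. In them 8 of 8 genes taken as broadly expressed and 1 of 6 tissue isoforms were open. The part of CpG content in the difference between the isoforms was not tested.

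**Figure D2:**
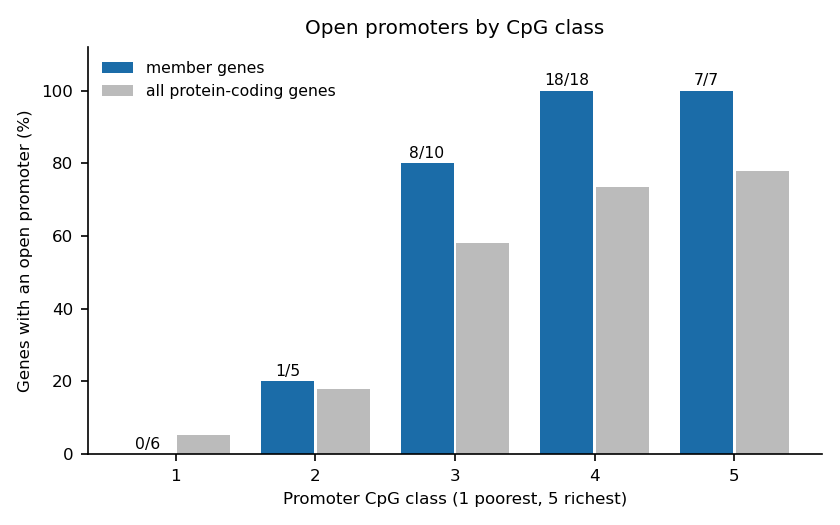
Share of genes with an open promoter (vertical axis, percent) in 5 classes of promoter CpG ratio (horizontal axis, poorest to richest), for the 46 genes (blue, with open over total) and all protein-coding genes (grey). From poorest to richest, 0 of 6, 1 of 5, 8 of 10, 18 of 18 and 7 of 7 of the 46 genes were open.

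Once open, these promoters were of ordinary strength. Their median fold enrichment was 8.10 (quartiles 6.47 and 9.78, n = 34), against 8.34 (quartiles 6.43 and 10.5) for all 10174 open promoters. Of the 34, 16 (47.1%) lay above the median of all open promoters. The strongest 10% of all open promoters held 3 of them and the weakest 25% held 9. The regions had a median width of 781 bp, against 680 bp. Their summits lay closer to a TSS, at a median of 43.0 bp, against 67.0 bp, and 32 of 34 (94.1%) lay within 150 bp, against 75.4%. The strongest region was shared with a start of another gene in 11 of 34 (32.4%), against 22.9% of all open genes. The genes with such a region were Atg12, Atg13, Atg2b, Atg3, Atg4a, Atg4b, Atg9a, Atp6v1a, Atp6v1b2, Atp6v1d and Atp6v1g2. Their promoter values cannot be assigned to 1 gene alone. Of the 46 genes, 6 had more than 1 promoter region (13.0%), against 7.12%. These were Atg7, Atg9a, Atp6v0a1, Atp6v0e, Atp6v1a and Atp6v1g2. The further region of Atg9a had 5.28 in replicate 1 and no peak in replicate 2, and that of Atp6v1g2 had 4.38 and 4.37.

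**Figure D3:**
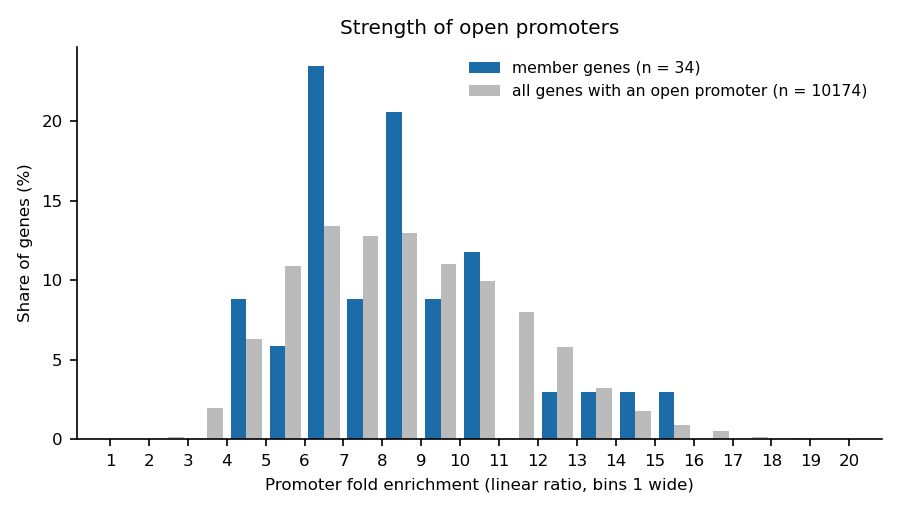
Share of genes (vertical axis, percent) by fold enrichment of the strongest promoter region (horizontal axis, linear ratio in bins 1 wide), for the 34 open genes (blue) and all 10174 genes with an open promoter (grey). The medians were 8.10 and 8.34, and no open promoter of the 34 was under 4.05.

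The 34 open genes were called in a set made from both replicates, so a promoter peak in each replicate was nearly fixed in advance. Each of the 34 had a promoter peak in the pseudoreplicated set of replicate 1 and of replicate 2, and the other 12 genes had one in neither. Among all protein-coding genes, open or not, 50.5% had one in replicate 1, 51.3% in replicate 2 and 48.6% in both. Of these 46 genes, 34 (73.9%) did in each case. In the stricter thresholded sets, 30 of the 46 had one in replicate 1 and 33 in replicate 2. Over all 21853 protein-coding genes these were 8578 (39.3%) and 8896 (40.7%), beside 10174 (46.6%) open ones. Of the 34, Atg10, Atg4b and Atg7 were missing in replicate 1 alone, and Lamp1 in both. On the log2 scale, replicate 2 minus replicate 1 gave a median difference of -0.03 with an SD of 0.26 (n = 34), against -0.01 and 0.23 for the other 10593 genes. Higher values were found in replicate 1 for 20 genes and in replicate 2 for 14. Of the 34, 2 (5.88%) lay over 0.5 log2 units apart, Atg7 and Atp6v1e1, against 4.03% of all genes. Across the 34 genes the log2 folds had a Pearson correlation of 0.847 and the folds a Spearman correlation of 0.852, against 0.898 and 0.907 across the other genes. Genes of 1 library share its depth and are not independent, so these are descriptions.

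**Figure D4:**
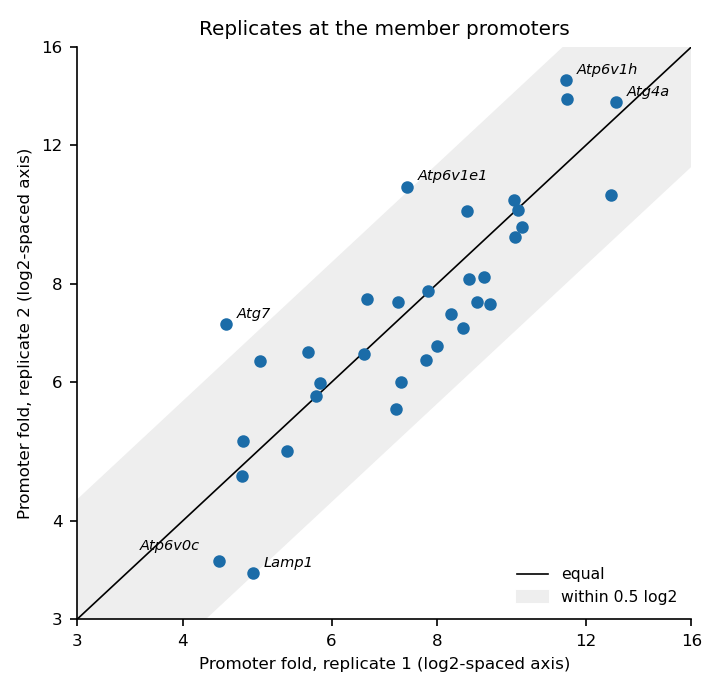
Promoter fold enrichment of the 34 open genes in replicate 1 (horizontal axis) and replicate 2 (vertical axis), both on log2-spaced axes, with the line of equal values and a grey band 0.5 log2 units to each side. Atg7 and Atp6v1e1 lie outside the band, and Lamp1 lies at its lower edge.

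Away from promoters, regions were assigned to the nearest TSS within 100 kb, which does not show that a region acts on that gene. The 46 genes had 52 distal regions, or 1.13 a gene, against 0.745 a gene over all protein-coding genes. At least 1 was assigned to 24 of the 46 (52.2%), against 33.6%. The stretch of genome nearest to each gene had a median length of 45.4 kb, against 43.6 kb. Atp6v1g3 alone had 8, and without it the other 45 genes had 44, or 0.978 each. The counts rest on the peak set, since the thresholded set of replicate 1 gave 26 regions at 12 genes (26.1%), against 22.1% of all genes, and that of replicate 2 gave 31 at 16 (34.8%), against 22.3%. In the set of replicate 1 the share of the 46 genes was thus near that of all genes. Of the 52 regions, 49 were found in the pseudoreplicated set of replicate 1, 50 in that of replicate 2 and 47 in both. As at promoters, this was nearly fixed in advance, because the 52 come from a set made from both replicates. In the stricter thresholded sets 25 of the 52 were overlapped in replicate 1, 29 in replicate 2 and 22 in both. The same shares over all distal regions are not given here. The median fold of the 52 was 6.07, against 6.03 for all 16273 distal regions.

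Of the 46 genes, 7 (15.2%) had 3 or more distal regions, against 9.07% of all genes, and together they held 31 of the 52. The 8 regions of Atp6v1g3 were all intergenic, from 36.3 kb upstream to 49.6 kb downstream of a closed promoter. Those 25.4 kb and 12 kb upstream had 9.0 and 7.74, and 7.69 and 8.98 in the replicates. Those 49.6 kb and 17.9 kb downstream had 8.20 and 7.27, and 6.18 and 7.10. The next gene was Ptprc, which encodes the leukocyte antigen CD45, at 62.1 to 148 kb from these regions. Of these 8 regions, 7 were in the own thresholded set of each replicate, and that 29.8 kb downstream was in neither.

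Atg4c had 5 regions around a weak promoter. The region 7.08 kb upstream had 7.15 in replicate 1 and 7.49 in replicate 2, and that 30.9 kb downstream, within the gene, had 7.61 and 7.28. All of these values exceed the promoter's own 4.70 and 4.56.

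Atp6v0d2 had 5 distal regions and no open promoter, all within its own gene body from 15.6 to 24.6 kb after the start. The strongest, at 21.1 kb, had 7.27 and 7.19, and the region at 21.6 kb had 4.92 and 5.45. The thresholded set of replicate 1 gave this gene 2 distal regions and that of replicate 2 gave it 3. Atp6v1b2 had 4 regions from 65.0 to 81.5 kb upstream, of which that at 75.9 kb had the highest mean, with 7.14 and 8.32. The region at 71.0 kb was above it in replicate 1, with 7.69, and below it in replicate 2, with 4.66. Slc18a1 starts close to the Atp6v1b2 promoter, and its start lay 76.4 kb from that same region. Atg7 and Lamp2 had 3 regions each, as had Atp6v1c1, for which the strongest lay 48.4 kb downstream with 6.79 and 7.82. The Atg7 region 2.04 kb from its nearest start had 8.39 in replicate 1 and 4.47 in replicate 2. The Lamp2 region 17.3 kb upstream, the strongest of that gene in the set from both, had 6.50 and 7.13. The region of Lamp2 17.8 kb downstream had 6.50 in replicate 1 and no peak in replicate 2. The thresholded set of replicate 1 gave Lamp2 1 distal region and that of replicate 2 gave it 0.

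The other 17 genes with a distal region had 1 or 2 each. The strongest of these was that of Atg13, 14.2 kb downstream within the gene, with 7.15 and 7.66. The single region of Atg101, at 3.73 and 3.38, lay 8.41 kb upstream and 9.01 kb from the start of Nr4a1, a transcription factor gene of monocytes. Both regions of Lamp1, 1.74 and 3.13 kb downstream, and both of Atp6v0c, 1.20 and 2.26 kb upstream, lay close to weak promoters. In all, 20 of the 52 regions lay in the body of their own gene, 5 in that of another gene and 27 between genes. The same split over all distal regions is not given here, so these counts only describe the 52. Of the 52, 20 (38.5%) lay within 10 kb of the TSS, against 35.9% of all distal regions. Distal regions were assigned to 17 of the 34 open and 7 of the 12 closed genes. The shares over all open and all closed genes are not given here, so this split cannot be called particular to these genes. No region of either kind was found at 5 genes, namely Atg4a-ps, Atp6v0a4, Atp6v1b1, Atp6v1c2 and Lamp5.

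**Figure D5:**
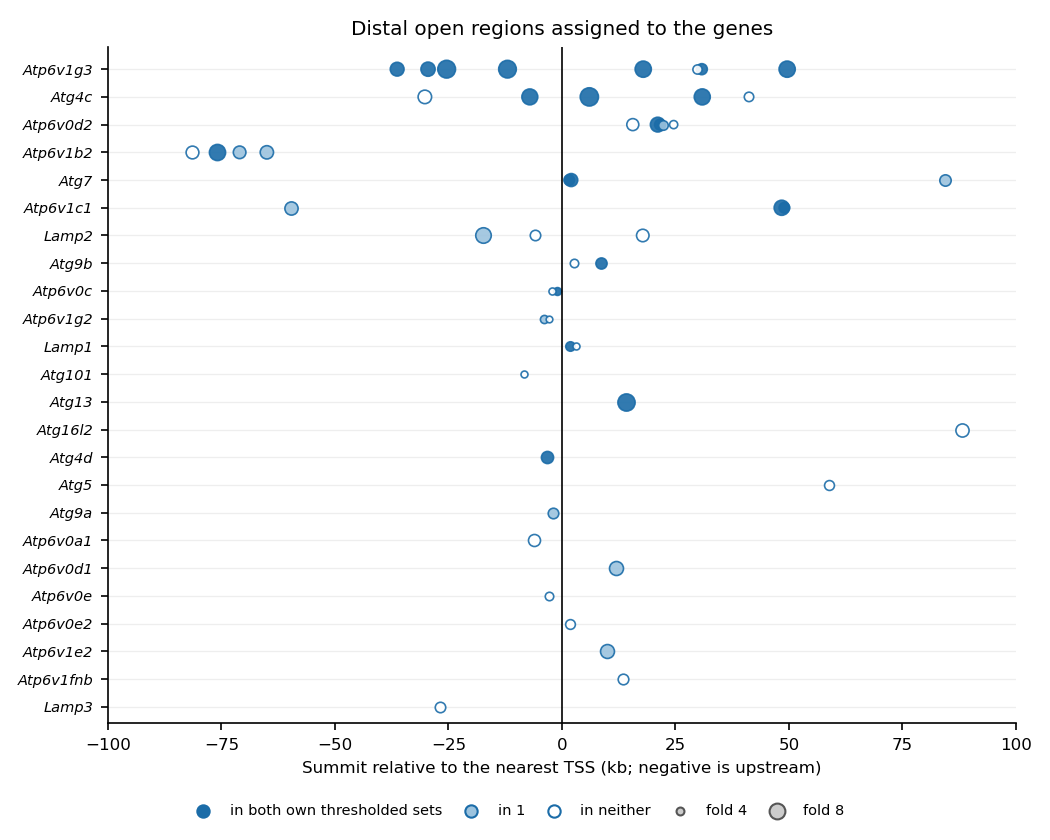
Position of the 52 distal regions relative to the nearest TSS (horizontal axis, kb, negative upstream) for the 24 genes that had any (rows). The area of a circle grows with the square of the fold enrichment, and the fill tells whether the region was in both, 1 or neither of the replicates' own thresholded sets. The 8 regions of Atp6v1g3 lie on both sides of its TSS, and the 4 of Atp6v1b2 lie 65.0 to 81.5 kb upstream.

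Within 100 bp of the summit of the 52 distal regions, the AP-1 string was found in 9 (17.3%), against 11.1% of all distal regions, and the CEBP string in 7 (13.5%), against 13.3%. The PU.1-type string was in 2 (3.85%), against 11.6%, including the Atp6v0d2 region 22.2 kb downstream. The CLEAR-type string was in 3 (5.77%), against 0.971%, at Atg4c 7.08 kb upstream, Atp6v1e2 9.92 kb downstream and Atp6v1fnb 13.5 kb downstream. Atp6v1e2 and Atp6v1fnb were closed, and the region of Atp6v1fnb lay in the body of Kcp. The shorter E-box was in 4 (7.69%), against 5.05%.

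Other genes of these pathways were mostly open too. Of 67 listed, 60 (89.6%) had an open promoter, against 46.6% of all protein-coding genes, with a median fold of 8.76. In the list of V-ATPase accessory and regulatory genes 7 of 10 were open, with Atp6ap2 at 13.5 and 13.0 in the replicates and Tcirg1, the a subunit of lysosomes and osteoclasts, at 3.87 and 4.50. The closed ones were Atp6ap1l, Dmxl2 and Tldc2. In the autophagy list 28 of 30 were open, with Pik3c3, the lipid kinase that Atg14 directs, at 12.2 and 13.7, and Calcoco2 and Optn closed. In the list of lysosomal membrane proteins and enzymes 25 of 27 were open, with Cd63 and Hexa closed. In the looser pseudoreplicated sets Hexa had a promoter peak in both replicates, at 3.38 and 4.95. Optn had one in replicate 1 alone, at 3.53, and Dmxl2 in replicate 2 alone, at 4.49. Cd63, Calcoco2, Atp6ap1l and Tldc2 had none in either.

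The label of the cells was checked against markers. Of 10 monocyte markers 9 had an open promoter, and Ccr2, the exception, had 3 distal regions. Of the markers of other cells, open promoters were found at 1 of 5 for T cells (Cd3d), 2 of 5 for B cells (Cd79b and Pax5), 0 of 4 for NK cells, 0 of 5 for neutrophils, 1 of 4 for the erythroid line (Klf1) and 0 of 4 for platelets. In the looser pseudoreplicated sets, promoter peaks were listed in both replicates at Ncr1 of NK cells (7.15 and 4.23), S100a8 of neutrophils (3.08 and 3.43) and Itga2b of platelets (3.49 and 2.64), and in neither at Klf1. In the same sets Cd3d had 11.7 and 11.2, above the values of every monocyte marker. The monocyte marker Fcgr1 had 6.18 in replicate 1 and no promoter peak in replicate 2. Cd79b had no promoter peak in replicate 1 and 3.54 in replicate 2. The NK markers had 10 distal regions among them. The part of other cell types in the values above was not tested.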

How the data were processed

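The data were peak lists from ATAC-seq of mouse monocytes (1 group, 2 biological replicates), on assembly mm10. Peaks were called from each replicate and from both together with a further input that is not described, per the deposited README. Which aligner, peak caller and Tn5 shift were used is not given in the sources used here. Fold enrichment, a linear ratio over background, and −log10 p are the authors' deposited values and were not scaled between samples. The deposited lists hold no read counts, so the depth behind each value is unknown and no interval is given.

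Overlapping peaks were merged, each region taking its highest fold and the summit of its most significant peak. The main set was the conservative IDR-thresholded one (IDR keeps peaks whose rank is repeatable), and replicate values came from the pseudoreplicated sets, as the highest fold within 1 kb of a TSS. TSSs were starts of protein-coding transcripts in GENCODE M21, and 0 regions ran past a chromosome's end in GRCm38.p6. Distal regions went to the TSS nearest to their summit within 100 kb. The assignment was tested on simulated data. With 1 group and no control, no test was made, and counts stand beside those over all protein-coding genes. Values in every replicate are given for the strongest and weakest promoter of each role, genes with 3 or more distal regions or more than 1 promoter region, the 5 strongest distal regions and genes over 0.5 log2 apart, and any others named were chosen after their values were seen. The values and sequence of 1 distal region that this rule names are not reported here. The genes, lists and motifs were chosen with earlier results of these data known. Alternatives were other peak sets, each replicate alone, other windows and distances, and a fold of at least 5. Python 3.11.15, numpy 2.4.6, pandas 2.3.3, pysam 0.24.0 and matplotlib 3.10.9 were used.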

Additional observations from a re-analysis of the deposited data

How the results depend on the processing

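The count of open promoters, 34, ran from 30 to 36 over all alternatives, and the count with a promoter peak in both replicates was 30 in the thresholded sets and 34 in the pseudoreplicated ones. The 52 distal regions became 96 in the replicated set and 93 in the pseudoreplicated set of the series. They became 26 and 31 in the thresholded sets of replicates 1 and 2. Over all genes the 16273 distal regions became 35857, 33719, 8494 and 8572 in the same sets. The pseudoreplicated sets of replicates 1 and 2 gave 75 regions at 29 genes and 78 at 27. Over all genes these sets gave 23967 regions at 9108 genes and 23995 at 9080. The 24 genes with a distal region became 12 and 16 in the thresholded sets of replicates 1 and 2, and 32 in both looser sets of the series. Over all genes the 7350 became 4832 and 4880 in these thresholded sets. In the replicated and pseudoreplicated sets of the series they became 11263 and 10712. The median promoter fold, 8.10, was 8.35 among peaks with a fold of at least 5 and 7.81 with a window of 2 kb, which added Atg9b and Atp6v0e2. The median was 8.16 in the thresholded set of replicate 1 and 7.54 in that of replicate 2. The stricter fold drops weak promoters, so the rise of the median to 8.35 follows from its construction. The causes of the fall with the wider window and of the shifts in distal counts were not tested. No paired analysis was possible because there is only 1 group and no test. With 2 replicates, peak lists alone and no depth, small differences between these genes cannot be told from the spread between libraries.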
